A study of Rattus norvegicus with 27 samples.

Results

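Neighbouring time points of a culture on a soft silicone surface were compared: 4 libraries of rat lung fibroblasts grown for 7 days on polydimethylsiloxane (PDMS) against 4 libraries grown for 4 days on it. The members were chosen by the surface and the day in the labels, and they make up 8 of the 27 libraries of the series. The remaining groups are days 2 and 14 on PDMS and days 4 and 14 on plastic, with 4 libraries each, and day 7 on plastic, with 3. Every culture was of primary fibroblasts from the lungs of Sprague-Dawley rats, which are outbred, isolated with magnetic beads against CD90, a surface glycoprotein also called Thy-1. Every library is marked WT (wild type) and monoculture in the count column names, which also carry the entry Non. The labels name no added agent in any group. PDMS had a stiffness of 3 to 5 kPa, and PDMS and plastic carried the same coat of rat tail collagen I, applied at 38 µg/ml, under the same MucilAir medium. RNA-seq libraries were made from 200 ng of total RNA. The labels tie no library to an animal, isolation or culture and give no age. The p-values therefore rest on the spread among libraries, which may be technical.

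Fibroblasts make and remodel the collagen-rich matrix of the lung and sense its stiffness through adhesions and their actin skeleton. On rigid culture plastic many of them are known to take on contractile, matrix-producing features, and a soft gel is used to keep them nearer to the compliance of tissue. The comparison asks what changed between the first days after seeding and the end of the first week when the surface was soft.

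The files give Ensembl gene IDs with no gene names, and none of the IDs could be matched to a symbol, so genes are described by level, direction and behaviour in other groups, and 4 of them by ID. Lists of lung fibroblast genes and of markers of other cell types were therefore not applied here, and the labelled cell type was not checked against its markers. In bulk RNA, fewer cells of a type and less RNA per cell cannot be told apart.

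Library totals were 19.9 to 21.9 M counts at day 4 and 17.9 to 25.3 M at day 7. Levels are given as CPM, counts scaled to a common library total after TMM normalization, and 1 count was worth 0.0395 to 0.0532 CPM in these libraries. PDMS day 4 replicate 2 stood apart from the other day 4 libraries. Its root mean square log2 distance over genes to each of them was 0.92 to 1.03, against 0.44 to 0.58 among the other 3 and 0.54 to 0.66 among the day 7 libraries. Distances from day 4 to day 7 libraries ran from 0.75 to 1.02. Those from day 4 replicate 2 ran from 0.98 to 1.02, so replicate 2 lay about as far from its own group as from the later one. Over all genes, its deviations from its group mean correlated 0.59 and 0.58 with those of Plastic day 4 replicates 1 and 2. The correlation was 0.57 with PDMS day 2 replicate 2 and 0.50 with Plastic day 7 replicate 4. These pairs were picked as a description, and values for the other libraries are not given. Whether PDMS day 4 replicate 2 is mixed or mislabelled was not tested. The main counts, the named genes and some of the summary measures below are therefore also given without it. Values of the PDMS step with no second figure include it.

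Between day 4 and day 7 on PDMS, 21 genes fell and 0 rose at a Benjamini-Hochberg adjusted p under 0.05, in edgeR's quasi-likelihood test with 1 mean for each of the 7 groups of the series. These are 0.147% and 0% of the 14258 genes tested. The 21 were mostly weakly expressed: 19 were under 1 CPM on average at day 7. Their median level was 1.54 CPM at day 4 and 0.129 CPM at day 7, and their fitted log2 fold changes ran from -1.94 to -7.31 with a median of -3.76. With 2 genes at 0 counts in all day 7 libraries set to their bound (3 counts over the group), the median was -3.56.

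At an unadjusted p under 0.05, 1184 genes were lower and 524 higher at day 7, against 713 due by chance in both directions together. Over all genes the median log2 fold change was -0.01 and 51.3% had a lower fitted value, so the imbalance lay among the larger differences. Fitted values differed by more than 2-fold in 1551 lower and 321 higher genes. The smallest adjusted p was 0.00577, and 17 of the 21 calls had one of 0.045 or more. These values include PDMS day 4 replicate 2, and the imbalance leaned on it. Without it, 2072 genes had an unadjusted p under 0.05 in edgeR, and the median log2 fold change was 0.07. Lower genes were then in surplus only under 10 CPM, and higher genes were in surplus above that level.

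The surplus of lower genes sat at low expression. Of 1771 genes with a mean under 1 CPM over all libraries, 15.2% had an unadjusted p under 0.05 in the lower direction and 2.65% in the higher. Between 1 and 10 CPM (3222 genes) the shares were 14.96% and 4.19%. They were 5.36% and 3.76% between 10 and 100 CPM, and 2.43% and 3.29% between 100 and 1000 CPM. Of the 100 genes over 1000 CPM, 2 were lower and 7 higher. The difference between these classes was not tested. With day 4 replicate 2 left out, lower genes were in surplus only under 10 CPM, with shares of 13.1% and 3.98% under 1 CPM and 14.8% and 6.18% from 1 to 10 CPM. From 10 to 100 CPM they were then 5.12% lower and 7.26% higher, from 100 to 1000 CPM 2.43% and 7.63%, and over 1000 CPM 3 genes were lower and 12 higher. The called genes followed the same order, with 8 under 1 CPM, 10 from 1 to 10 CPM, 3 from 10 to 100 CPM and 0 above.

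**Figure D1:**
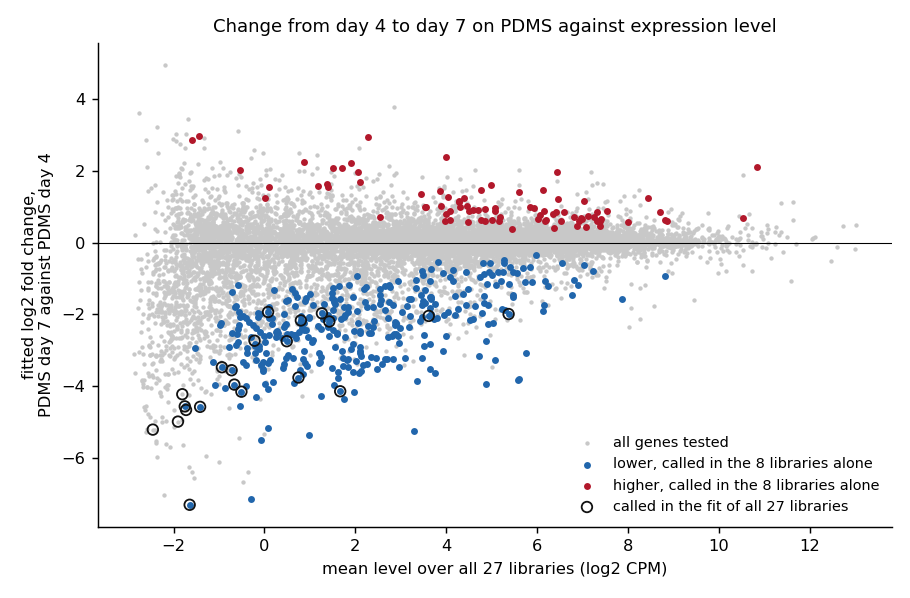
Fitted log2 fold change of PDMS day 7 against PDMS day 4 (vertical axis) against the mean log2 CPM over 27 libraries (horizontal axis), 1 point per gene tested. Grey points are all genes, blue and red points the 343 lower and 85 higher genes called in the 8 libraries alone, and rings the 21 genes called in the fit of 27 libraries; the rings lie below the line at 0, mostly towards the left.

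Leaving out any 1 of the 8 libraries left between 1 and 10 calls in the same fit. The count was 3 without PDMS day 4 replicate 1, 3 without day 4 replicate 3 and 4 without day 4 replicate 4. It was 4, 1, 9 and 1 without day 7 replicates 1, 2, 3 and 4. Without day 4 replicate 2 it was 10, of which 7 were lower and 3 higher. Over the 21 genes the median log2 fold change was then -3.43 (from -1.75 to -7.13). Their direction could not turn, because they were chosen on these libraries and their groups do not overlap.

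Averaged over the 21 genes, the log2 CPM was 1.04, 1.33, 1.14 and 0.86 in PDMS day 4 replicates 1 to 4. It was -1.32, -1.79, -1.46 and -1.47 in PDMS day 7 replicates 1 to 4. Replicate 2 was the highest of the day 4 libraries and the lowest of the day 7 libraries in this average. The groups did not overlap in any of the 21 genes, among which they were called. Among all genes tested, 961 (6.74%) were lower and 602 (4.22%) higher at day 7 with no overlap between the days. Without day 4 replicate 2 these counts were 1989 (14.0%) and 1239 (8.69%), and 3 libraries are more easily clear of 4 than 4 are.

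The 21 genes shared a time course in groups that the comparison did not use. Their median level was 5.06 CPM at PDMS day 2 and 0.234 CPM at PDMS day 14, and 20 of the 21 had a higher mean at day 2 than at day 4. In the test of PDMS day 14 against PDMS day 2, 27.3% of all genes fell and 24.3% rose. This contrast compares none of the 8 libraries, although they help to set the spread in the fit. All 21 fell there, with a median log2 fold change of -4.54. When only the day 2 and day 14 libraries were fitted, 20.8% of 13163 genes fell and 19.8% rose, and of the 21 genes 19 were tested and 19 fell. The filter on low counts used all 27 libraries, and 16 of the 21 genes passed it in the 8 libraries alone. The others may have passed through groups such as PDMS day 2, so their course there may be partly fixed by the filter. PDMS day 2 replicate 4 was lower than the other day 2 libraries, at a mean log2 CPM of 1.57 over the 21 genes against 2.88 to 3.11.

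With ENSRNOG00000023320, 1 of the 2 IDs with the largest fall among called genes of at least 5 CPM, the step was nearly a loss of signal. PDMS day 4 replicates 1 to 4 had 11.4, 26.2, 9.45 and 7.47 CPM. PDMS day 7 replicates 1 to 4 had 0.948, 0.213, 1.16 and 0.687 CPM. The lowest day 4 library was above the highest day 7 library, and the highest day 4 value was that of replicate 2, the library that stood apart. The fitted log2 fold change was -4.15 with a standard error of 0.81 (fold change over the root of the F statistic), with an edgeR adjusted p of 0.0468. Without day 4 replicate 2 it was -3.55 with an adjusted p of 0.0837. The level was 53.9 ± 25.7 CPM (SD, n = 4) at PDMS day 2 and 0.996 ± 1.35 CPM (SD, n = 4) at PDMS day 14, so most of the decline over the course was complete by day 7.

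ENSRNOG00000006079 fell less deeply and stayed well above the level of single counts. It had 26.7, 12.8, 30.7 and 18.9 CPM in PDMS day 4 replicates 1 to 4. In PDMS day 7 replicates 1 to 4 it had 8.69, 3.94, 3.79 and 5.13 CPM. The groups did not overlap, and here replicate 2 was the lowest of the day 4 libraries. The log2 fold change was -2.04 with a standard error of 0.41 and an edgeR adjusted p of 0.0468. It was -2.17, with an adjusted p of 0.0447, without day 4 replicate 2. The mean of ENSRNOG00000006079 was 55.3 ± 34.7 CPM (SD, n = 4) at PDMS day 2 and 3.601 ± 1.43 CPM (SD, n = 4) at PDMS day 14.

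No gene met the naming rule among rises, so 2 IDs were chosen after their values were seen, as the largest rises under that rule when the 8 libraries were fitted alone. ENSRNOG00000052405 had 2.58, 0.734, 1.29 and 3.91 CPM in PDMS day 4 replicates 1 to 4. It had 24.8, 14.9, 17.1 and 8.19 CPM in PDMS day 7 replicates 1 to 4. Every day 7 library was above every day 4 library. The log2 difference was 2.93 with a standard error of 0.67 and an edgeR adjusted p of 0.0655 in all libraries, and in the 8 libraries alone the adjusted p was 0.0288. Dropping day 4 replicate 2 from the 27 gave 2.71 with an adjusted p of 0.128.

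ENSRNOG00000008880 had 9.44, 9.45, 10.3 and 6.45 CPM in PDMS day 4 replicates 1 to 4, a narrow range. PDMS day 7 replicates 1 to 4 had 35.4, 66.0, 56.5 and 28.97 CPM, again with no overlap. The log2 difference was 2.39 with a standard error of 0.69 and an edgeR adjusted p of 0.127. In the 8 libraries alone it was 2.38 with a standard error of 0.28 and an adjusted p of 0.0160. Dropping day 4 replicate 2 from the 27 libraries gave 2.48 with an adjusted p of 0.192. Both IDs continued upward in mean to PDMS day 14, to 25.2 ± 15.9 CPM for ENSRNOG00000052405 and 60.4 ± 30.1 CPM for ENSRNOG00000008880 (SD, n = 4), though the day 7 and day 14 ranges overlapped.

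**Figure D2:**
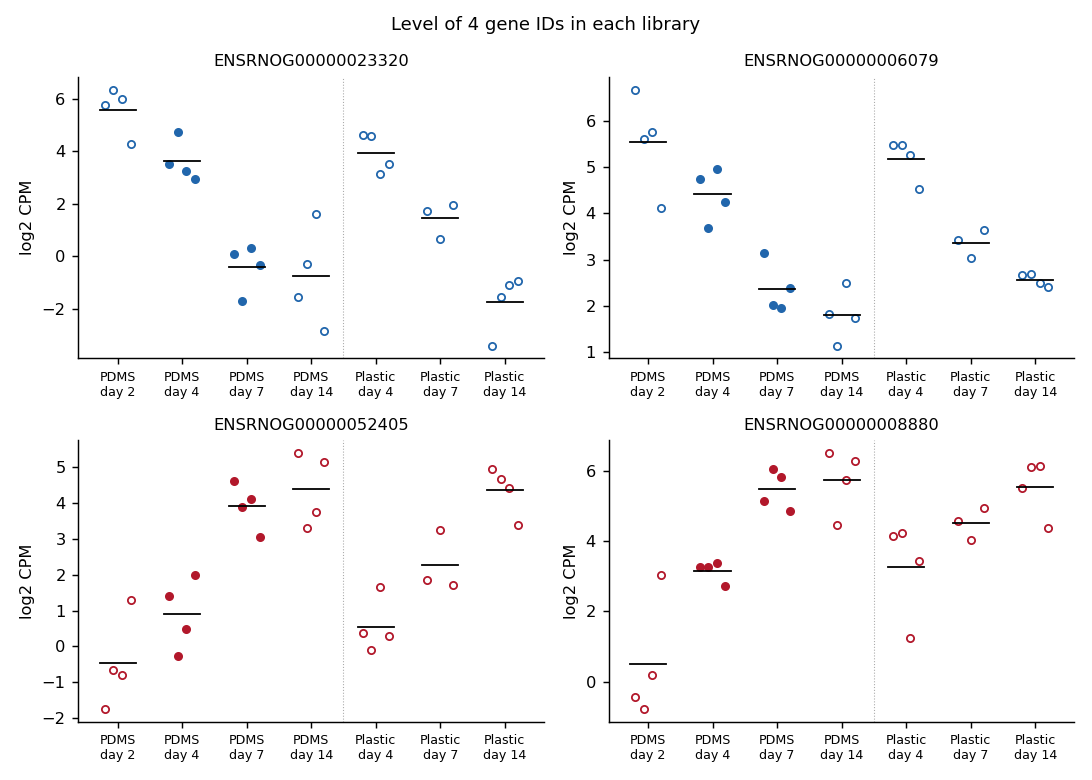
Log2 CPM of 4 gene IDs (vertical axes) in each library of the 7 groups (horizontal axes), with filled points for PDMS day 4 and day 7, open points for the other groups and bars at the group mean. ENSRNOG00000023320 and ENSRNOG00000006079 (blue) were lower, and ENSRNOG00000052405 and ENSRNOG00000008880 (red) higher, in every PDMS day 7 library than in any PDMS day 4 library.

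The number of genes called was far larger when the 8 libraries were taken by themselves. When they were fitted alone, 428 of 13010 genes were called, 343 lower (2.64%) and 85 higher (0.653%). The median biological coefficient of variation was 0.197 in that fit and 0.243 in the fit of 27 libraries, with 6 and 20 residual degrees of freedom. The genes kept and the scaling changed too, and DESeq2 on all 27 libraries called 383 genes, 330 lower and 53 higher. What set the difference was not tested. Of the 21 genes, 16 were tested there and all 16 were called. In the fit of 27 libraries, 336 of the 343 lower and 64 of the 85 higher genes had an unadjusted p under 0.05.

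The lower and the higher genes of the 8-library fit differed in level and in size of change. The 343 lower genes had a median of 7.93 CPM at day 4 and 1.22 CPM at day 7, and 149 of them were under 1 CPM at day 7. Their median log2 fold change was -2.28, and 214 fell by more than 4-fold. The 85 higher genes were more strongly expressed, with medians of 29.5 CPM at day 4 and 52.4 CPM at day 7, and 32 of them reached 100 CPM at day 7. Their changes were smaller, with a median log2 fold change of 0.88 and 10 genes over 4-fold. As a share of all reads, the lower genes took 0.719% ± 0.133 at day 4 and 0.237% ± 0.014 at day 7 (SD, n = 4). The higher genes took 0.747% ± 0.042 at day 4 and 1.46% ± 0.18 at day 7 (SD, n = 4).

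This fit, too, leaned on single libraries. Without PDMS day 4 replicate 2, 1482 of 13142 genes were called, 1091 lower (8.30%) and 391 higher (2.98%), and they included all 343 and all 85. Without day 4 replicates 1, 3 and 4 the counts were 8, 125 and 441. They were 8, 13, 252 and 78 without day 7 replicates 1, 2, 3 and 4. Lower genes outnumbered higher ones in each of these fits, and by the smallest ratio without day 7 replicate 4, with 48 against 30.

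**Figure D3:**
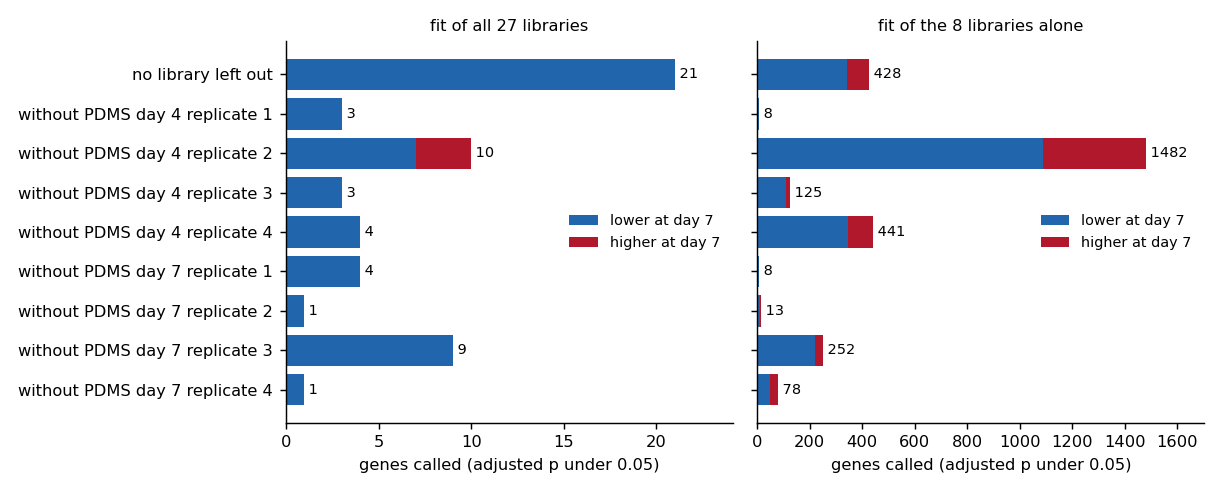
Genes called at an adjusted p under 0.05 for PDMS day 7 against PDMS day 4 (horizontal axes, different scales) with no library left out and with each of the 8 libraries left out in turn, in the fit of 27 libraries (left) and of the 8 alone (right). Blue bars are lower and red bars higher genes; the totals run from 1 to 21 on the left and from 8 to 1482 on the right.

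The 343 and 85 genes could be followed through PDMS day 2 and day 14, whose libraries had no part in choosing them. Of the 343 lower genes, 320 (93.3%, against 27.3% of all genes) also fell between PDMS day 2 and day 14 and 0 rose. They make up 8.21% of the genes that fell over the course. Of the 85 higher genes, 80 (94.1%, against 24.3% of all genes) also rose over the course and 0 fell, which is 2.31% of the genes that rose. The median log2 fold changes from day 2 to day 14 were -3.93 and 2.19. With only the day 2 and day 14 libraries in the fit, 308 of the 341 lower genes tested fell (against 20.8% of all genes) and 71 of the 83 higher genes tested rose (against 19.8%). For the larger lists without day 4 replicate 2 the shares were lower, against the same 27.3% and 24.3%: 860 of 1091 (78.8%) also fell, with 12 that rose, and 226 of 391 (57.8%) also rose, with 8 that fell.

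Much of the change in both lists had taken place by day 7. The median gene of the 343 stood at a log2 CPM of 4.15 at PDMS day 2, 2.85 at day 4, 0.29 at day 7 and -0.10 at day 14. Among the 85 the medians were 4.23, 4.88, 5.70 and 6.02. Since day 4 and day 7 chose these genes, the size of that middle difference is a description and is likely to be overstated by the choice. PDMS day 2 replicate 4 had a mean log2 CPM of 3.13 over the 343 genes and 4.52 over the 85, nearer to day 4 than its group did on average (4.14 and 3.51).

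**Figure D4:**
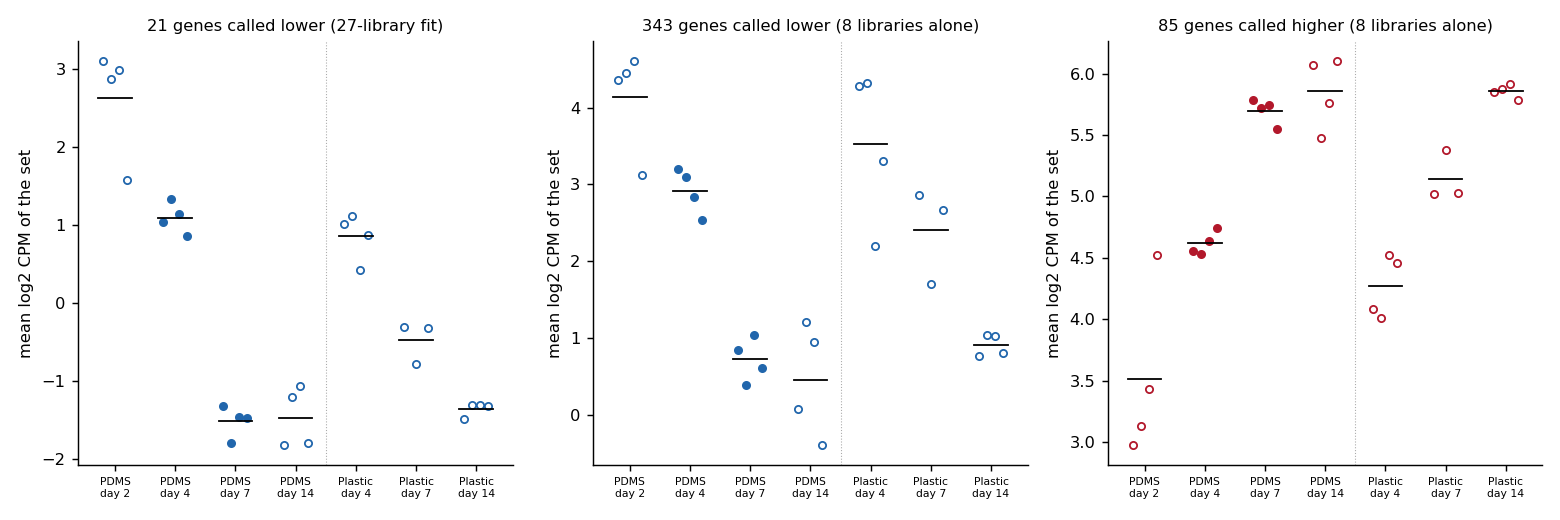
Mean log2 CPM (vertical axes) of the 21 genes called in 27 libraries and of the 343 lower and 85 higher genes called in the 8 libraries alone, in each library of the 7 groups (horizontal axes), with bars at group means and filled points for the groups that chose the genes. The averages of the 21 genes ran from 0.86 to 1.33 at PDMS day 4 and from -1.79 to -1.32 at PDMS day 7.

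Read the other way, genes chosen by the full course can be asked what they did in the middle step. Between PDMS day 2 and day 14, 3897 genes fell and 3461 rose. Scaling by library size in place of TMM moved the share of rises among called genes from 47.04% to 35.9% and the median of all genes from -0.05 to -0.20. Of those that fell, 3412 (87.6%) had a lower mean log2 CPM at day 7 than at day 4, against 50.01% of all genes. Their day 4 and day 7 libraries did not overlap, in that direction, in 20.7%, against 6.74% of all genes. Of those that rose, 2991 (86.4%, against 49.99% of all genes) were higher at day 7, and 13.5% did not overlap, against 4.22% of all genes.

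The middle step had the smallest median difference of the 3 for genes of the course. The steps span unequal numbers of days, and the differences are not scaled for that. Genes that fell had median log2 differences of -0.45 from day 2 to day 4, -0.25 from day 4 to day 7 and -0.32 from day 7 to day 14. Genes that rose had 0.43, 0.21 and 0.35. The outer steps use the libraries that chose these genes, which the middle step does not, and the differences between the steps were not tested. Without day 4 replicate 2, 78.6% and 76.1% kept their direction in the middle step, against 49.8% and 50.2% of all genes. The medians of the middle step were then -0.23 and 0.16. Across the 14258 genes, the fitted middle step and full course had a Pearson correlation of 0.76 and a Spearman correlation of 0.65. These were 0.68 and 0.50 over 14220 genes without day 4 replicate 2. Genes within a library are not independent, and this is a description.

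On plastic the same interval gave 0 calls in edgeR (0%), with a smallest adjusted p of 0.0883. At an unadjusted p under 0.05 there were 2665 genes, 1567 lower and 1098 higher. DESeq2 called 388 genes, 176 lower and 212 higher, and limma-voom called 2, both higher. Without Plastic day 4 replicate 3, edgeR called 528, 166 lower and 362 higher. The predominance of falls among the PDMS calls was thus not seen among these plastic calls. Plastic day 4 replicates 1 and 2 were closely alike, at 3.74 times the sampling noise against 8.60 to 46.4 times for pairs of PDMS day 4 libraries. With both summed into 1 library, 0 genes were called and 1687 had an unadjusted p under 0.05. Among the genes called on PDMS, direction was shared all the same. Of the 343 genes lower on PDMS, 334 (97.4%) were lower on plastic, against 54.0% of all genes, and 159 had an unadjusted p under 0.05, as 10.99% of all genes had in that direction. Of the 85 genes higher on PDMS, 84 (98.8%) were higher on plastic, against 46.0% of all genes, and 35 had an unadjusted p under 0.05, against 7.70% of all genes. The lists without PDMS day 4 replicate 2 matched in direction in 994 of 1091 (91.1%) and 327 of 391 (83.6%).

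The fitted changes of these genes were smaller on plastic, where they had not been chosen: the median log2 fold changes were -1.37 for the 343 and 0.74 for the 85. Averaged over the 343 genes, the log2 CPM was 4.28, 4.32, 2.19 and 3.30 in Plastic day 4 replicates 1 to 4. In Plastic day 7 replicates 1, 3 and 4 it was 2.86, 1.70 and 2.67. The plastic groups overlapped, because Plastic day 4 replicate 3 lay within the day 7 range, whereas the PDMS groups were apart (2.54 to 3.21 against 0.39 to 1.04). The 85 genes averaged 4.27 ± 0.26 at Plastic day 4 (SD, n = 4) and 5.14 ± 0.21 at Plastic day 7 (SD, n = 3), with no overlap.

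Of the 21 genes that fell on PDMS, 20 had a lower fitted level on plastic, and 15 had an unadjusted p under 0.05, against 10.99% of all genes in that direction. Their median log2 fold change on plastic was -1.69 and their smallest adjusted p 0.103. Averaged over the 21, the log2 CPM was 0.43 to 1.12 in the Plastic day 4 libraries and -0.78 to -0.31 in the Plastic day 7 libraries, without overlap. ENSRNOG00000006079 came near to the same size on both surfaces, with a log2 fold change of -1.85 on plastic (standard error 0.44, edgeR adjusted p 0.103). ENSRNOG00000023320 had -2.59 (standard error 0.82, edgeR adjusted p 0.158). The 2 IDs with the largest rises had 1.80 for ENSRNOG00000052405 and 0.94 for ENSRNOG00000008880 on plastic, with edgeR adjusted p of 0.194 and 0.471.

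The difference between the surfaces was tested as an interaction of surface and day. It called 0 genes in edgeR (0%), DESeq2 and limma-voom, with 419 at an unadjusted p under 0.05 in edgeR against 713 due by chance, and a smallest adjusted p of 0.733. The count at an unadjusted p under 0.05 was 800 without PDMS day 4 replicate 2, 960 without Plastic day 4 replicate 3, 740 without Plastic day 7 replicate 4 and 636 without PDMS day 7 replicate 3, where the test called 1 gene. For the 4 IDs the interaction had adjusted p from 0.994 to 0.996. For ENSRNOG00000023320 its estimate was -1.56 with a standard error of 1.06 and 0 lay within 2 standard errors of it. A p that misses the threshold does not show that the surfaces acted alike. Across the 14258 genes the steps on PDMS and plastic, which share no library, had a Pearson correlation of 0.64 and a Spearman correlation of 0.56, given as a description. Without PDMS day 4 replicate 2 they were 0.61 and 0.44 over 14220 genes.

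**Figure D5:**
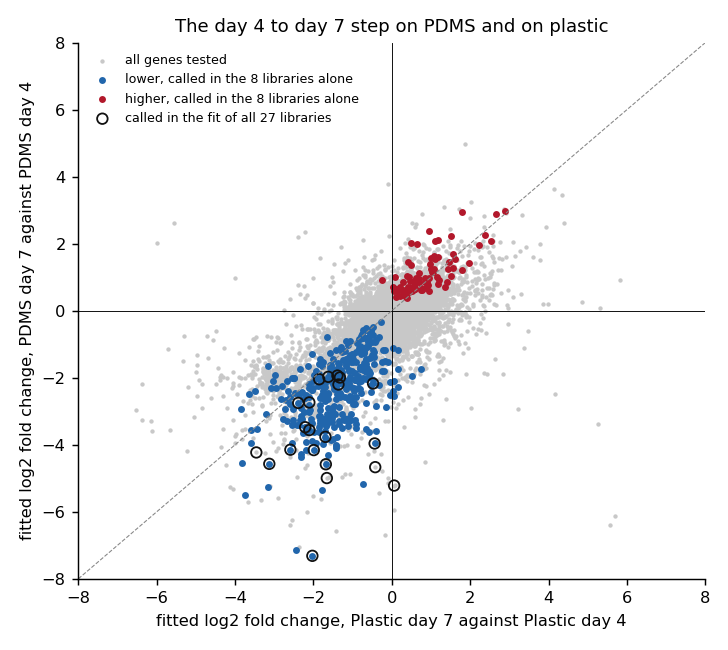
Fitted log2 fold change of day 7 against day 4 on PDMS (vertical axis) against that on plastic (horizontal axis), 1 point per gene, with the diagonal where both are equal. Blue (343) and red (85) genes were called in the 8 PDMS libraries alone and rings mark the 21 called in 27 libraries; 334 of the blue lie left of 0 and 84 of the red right of 0, and the test of the difference called 0 genes.

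Fewer genes were detected in every day 7 library than in any day 4 library, a difference that missed the threshold after adjustment. After each library was thinned to 17285101 reads, 12846 to 12970 genes had at least 10 reads in the day 4 libraries and 12457 to 12651 in the day 7 libraries. The means were 12912 ± 59.6 and 12558 ± 80.7 (SD, n = 4), a difference of -354 genes. A two-sided exact permutation test gave p = 0.0286, the smallest that 4 against 4 libraries allow, and 0.0857 after adjustment over the 3 measures of breadth. The difference was -340 without PDMS day 4 replicate 2.

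The share of reads held by the 10 most abundant genes showed no difference beyond its spread. The 10 most abundant genes took 6.16% ± 0.62 of reads at day 4 and 6.36% ± 0.57 at day 7 (SD, n = 4; exact permutation p = 0.657, adjusted 0.657). The difference was 0.202 percentage points, and -0.062 without day 4 replicate 2. The days shared 9 of their top 10 genes and 88 of their top 100. The effective number of genes (the number of equally abundant genes with the same Shannon entropy of read shares) was 3892 ± 125 at day 4 and 3704 ± 179 at day 7 (SD, n = 4; exact permutation p = 0.171, adjusted 0.257). Its difference was -188, and -131 without day 4 replicate 2.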

How the data were processed

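Whole-number raw counts for Ensembl rat gene IDs were deposited by the authors. The table has 28 columns, and 1 that matches none of the listed samples was left out. Per the series design text, reads were checked with FastQC 0.11.2, duplicates were assessed with bamUtil 1.0.11 and dupRadar 1.4, and expression was quantified with Cufflinks (version 2.2.1 per the submitters' processing notes). The notes also name STAR and DESeq2. The counting program, strand setting, build and annotation were not given in the sources used here. Overlapping, antisense or near-identical genes may therefore share or split reads. Depth-scaled and variance-stabilized tables were not used here.

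Of 32753 IDs, 11756 had no read, 0 rows name no gene, and 0 IDs matched a symbol of the RefSeq table for GRCr8. Counts were tested in R 4.3.3 with edgeR 4.0.16: filterByExpr (a count of about 10 in enough libraries and a total of at least 15) kept 14258 genes with at least 99.9% of reads, TMM scaling, 1 mean per group, quasi-likelihood F tests with Benjamini-Hochberg adjustment over all genes. Log2 CPM used a prior count of 2. Without symbols, the rule for named genes gave up to 2 IDs a direction: adjusted p under 0.05, no overlap, at least 5 CPM in the higher group, largest fold change. The comparison, members, lists and tests were chosen with earlier results of these data known. Alternatives used limma 3.58.1 (voom), DESeq2 1.42.0, other scalings, no filter, a replicate block, fewer libraries and each library left out. The fit was also run on counts simulated with independent libraries, none of which stood apart. That run does not cover a library such as PDMS day 4 replicate 2.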

Additional observations from a re-analysis of the deposited data

How the results depend on the processing

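For PDMS day 7 against day 4, the 21 calls became 23 with RLE factors, 32 with library size in place of TMM, 4 with no filter on low counts, 383 in DESeq2 (330 lower, 53 higher) and 7 in limma-voom. They became 63 in the PDMS libraries alone and 428 in the libraries of these groups alone. Leaving out 1 library gave 1 to 10 calls in the fit of all libraries. In the 8 libraries alone, where leaving out libraries was added after the data were seen, it gave 8, 1482, 125 and 441 without day 4 replicates 1 to 4 and 8, 13, 252 and 78 without day 7 replicates 1 to 4. The cause of these shifts was not tested. The 21 genes were lower, with an unadjusted p under 0.05, wherever they were tested, which their choice on the same libraries largely fixes. ENSRNOG00000023320 kept its direction in 25 of 25 settings and lost its call in 16, and ENSRNOG00000006079 in 25 and 17. On plastic the 0 calls became 388 in DESeq2 and 2 in limma-voom, and 0 to 528 with 1 library left out. The interaction gave 0 to 1 with 1 library left out. PDMS day 14 against day 2 gave 5337 to 7806 calls.

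Same-numbered PDMS day 4 and day 7 libraries had correlated deviations of 0.02, 0.33, -0.02 and 0.11 for replicates 1 to 4, and 3 of 8 libraries matched best with their own number, so the numbers were not taken to pair the samples. This check covered PDMS day 4 and day 7 only, and whether libraries of the same number share an origin was not tested. With a replicate block the count was 3 in all libraries and 155 in the 8 libraries alone.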
